A study of Homo sapiens with 3 samples.

Results

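Of the 7764 DMRT1 peaks on chromosomes 1 to 22, X and Y in day 8 primordial germ cell-like cells, 182 had their centre in a hAT DNA transposon. They were chosen by the repeat annotation the authors gave each peak, as those whose element belongs to the class of DNA transposons and to a family whose name starts with hAT. That choice used no measured value. The hAT peaks covered 58.1 kb in all and were held by 60 subfamilies. The most frequent were Charlie1a with 21 peaks, MER20 and MER3 with 14 each, and MER20B with 8.

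DMRT1 binding was measured by CUT&RUN, in which a nuclease tethered to an antibody cuts DNA around the protein of interest and the freed fragments are sequenced. The 2 libraries with a DMRT1 antibody, named replicates 1 and 2, and the 1 library with rabbit IgG as background came from day 8 cells positive for a DAZL reporter (DZ+PGCLCs), made from the human embryonic stem cell line WIS2. All 3 libraries share the study's induction scheme, in which DMRT1 is switched on by doxycycline and a fusion of SOX17 to the glucocorticoid receptor by dexamethasone, both from transgenes, so transgenic and endogenous DMRT1 cannot be told apart in the peaks. The study describes this induction as made with the cytokines BMP2, SCF and EGF, replaced later by retinoic acid, Activin A, SCF and EGF. DAZL binds RNA and is switched on when germ cells become committed.

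The deposited list holds peaks common to both DMRT1 libraries, with no height, score or value per library. No value here therefore has a spread between replicates. The p-values measure variation over regions within 1 list, the IgG library acted only through the authors' peak calling, and the depth of the libraries is unknown from the list. Intervals given with shares are Wilson 95% intervals and cover counting error only. No level of expression is in the list, so DAZL and other germ cell markers could not be checked in these cells.

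hAT elements, named after hobo of the fly, Ac of maize and Tam3 of the snapdragon, are DNA transposons that a transposase cuts out and pastes elsewhere. Human copies are old and no longer move, and most elements named MER are short non-autonomous copies that relied on the transposase of a longer relative such as Charlie, Tip100 or Blackjack. DMRT1 is a transcription factor of gonads and germ cells that contacts DNA through a DM domain, and its known sites are short palindromes.

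3 kinds of DMRT1 sequence were sought on both strands. The core palindrome was ACAATGT, read as ACATTGT on the opposite strand. The second palindrome was TGTAACA, read as TGTTACA on the opposite strand. It was chosen because earlier results of these data had shown it to be frequent in the whole peak list, hAT peaks included. Its test against flanks below is thus not independent of that choice. The third was a 15-base motif fitted to 2343 peaks outside repeats on odd-numbered chromosomes, with no hAT peak in the fit. In that motif position 2 was G in 74.5% of fitted sites, position 5 was A in 89.9% and position 6 was C in 80.5%, with the mirror image in the last 7 bases. A peak passed it when its best site scored above 7.29 natural log units, a threshold that 5% of flanking windows of the fitted peaks pass by construction. It was also passed by 28.3% of the 2359 non-repeat peaks kept out of the fit, against 4.45% of their flanks. A match of any of these describes the letters of a region and is not a proof of contact.

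The following 6 sites show the core near the centre of hAT peaks of 6 subfamilies. Each is on the forward strand of GRCh38 (hg38), with 8 bases on either side and the core in capitals, and is named by the nearest gene and the subfamily.
C16orf82, MER113, chr16:26807785-26807807: aaaatgaaACATTGTtattgtgg
CHAC2, Charlie10b, chr2:53741335-53741357: gctactcaACATTGTcacaaact
ATG4C, Zaphod, chr1:62750471-62750493: agtcctgaACAATGTtacaatgt
POLR1A, MER117, chr2:86074495-86074517: actcagcaACATTGTtaatcgat
TRAF3IP2-AS1, Charlie1a, chr6:111409021-111409043: cataaataACATTGTtttaaact
MRPL19, MER20, chr2:75677444-75677466: aatacctgACAATGTgtagacat

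The core in these peaks lay 0 bp (C16orf82), 3 bp (CHAC2), 5 bp (ATG4C), 8 bp (POLR1A), -12 bp (TRAF3IP2-AS1) and -24 bp (MRPL19) from the peak centre. They were picked for that position and for coming from different subfamilies, so their place is no result. CHAC2 degrades glutathione, ATG4C is a protease of autophagy, POLR1A is the largest subunit of RNA polymerase I and MRPL19 is a protein of the mitochondrial ribosome. The ATG4C peak held the core, the second palindrome and the fitted motif, and the 2 palindromes overlapped there.

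The core was held by 42 of 182 hAT peaks (23.1%, 17.6 to 29.7%) and by 6 of 182 flanks (3.30%, 1.52 to 7.0%). A flank is a window of the same width as its peak whose centre lies 5 kb away. The share was thus 7.0 times that of the flanks, a difference of 19.8 percentage points (two-sided exact McNemar test, p = 1.71e-08), with the core in the peak alone in 40 pairs and in the flank alone in 4. Over all 7764 peaks the core was held by 24.0%, so the hAT share was near that of the list as a whole.

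The second palindrome was held by 50 hAT peaks (27.5%, 21.5 to 34.4%) and by 12 flanks (6.59%, 3.81 to 11.2%), 4.17 times as large a share (p = 7.56e-07, two-sided exact McNemar test). It was held by 25.0% of all peaks. The fitted motif was passed by 47 hAT peaks (25.8%, 20.0 to 32.6%) and by 5 flanks (2.75%, 1.18 to 6.27%), 9.40 times as large a share (p = 1.28e-09, two-sided exact McNemar test). It was passed by 30.1% of all peaks. With a threshold that 1% of flanks pass, the difference for the fitted motif was 6.04 points (exact p = 0.000977), and with an A or T required on either side of the core that for the core was 12.1 points (exact p = 2.98e-06). All 3 sequences were thus more frequent in hAT peaks than beside them, at shares near or under those of the whole list.

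At least 1 of the 3 was held by 100 hAT peaks (54.9%, 47.7 to 62.0%) and by 22 flanks (12.1%, 8.12 to 17.6%), with p = 2.54e-16 in the two-sided exact McNemar test. Over all peaks the share was 55.6%, so the hAT share was near that of the list here too. How often the 3 met in a peak was counted, and was not compared with chance or with all peaks. Of the 3, only the core was held by 20 peaks, only the second palindrome by 25 and only the fitted motif by 20. The core and the second palindrome were both in 12 peaks, the core and the fitted motif in 14 and the second palindrome and the fitted motif in 17, of which 4 held all 3 (nearest genes ATG4C, G2E3, MIR548F4 and GRHL2). None of the 3 was found in 82 hAT peaks, which says only that these letters are not in those windows.

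**Figure D1:**
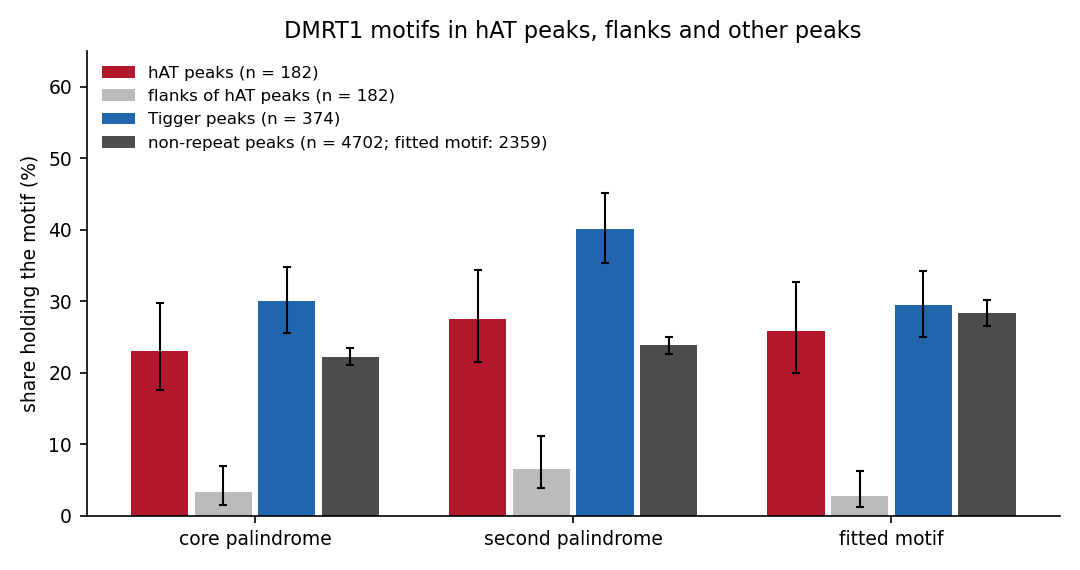
Share of regions (%) holding the core palindrome, the second palindrome and the fitted motif in hAT peaks, their flanks, Tigger peaks and non-repeat peaks, with Wilson 95% intervals as error bars. The 3 hAT bars stand at 23.1, 27.5 and 25.8%, above flanks at 3.30, 6.59 and 2.75%, and for the second palindrome below Tigger peaks at 40.1%.

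Both palindromes were densest within 50 bp of the peak centre. Core sites numbered 22 there, 17 between 50 and 100 bp and 11 between 100 and 200 bp, which corresponds to 1.21, 0.996 and 0.639 sites per kb of hAT peak searched. Sites of the second palindrome numbered 26, 16 and 17 in the same bands, or 1.43, 0.937 and 0.987 per kb. These densities are a description and were not tested.

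The best sites of the fitted motif came from many subfamilies. The 4 highest on chromosomes whose sequence is given here are written on the strand that scored, with the 4 most constant inner bases in capitals.
SEC16B, MER5A1, chr1:177941003-177941017: tgtaACagtGTttct
RFX3, Arthur1B, chr9:3578990-3579004: tgaaACtctGTgtca
LINC01929, Charlie1a, chr18:55212530-55212544: agaaACtgtGTtgct
CHD9NB, MER33, chr16:52836410-52836424: tgcaACataGTggct

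SEC16B, an organiser of exit sites of the endoplasmic reticulum, was the nearest gene of the best site, which scored 10.6 in a MER5A1 copy in an intron. That site starts with the second palindrome. RFX3, a transcription factor of ciliated cells, was nearest to an Arthur1B copy 53.0 kb upstream of its start whose site scored 9.94. The sites nearest to LINC01929 (9.83) and CHD9NB (9.76) followed, 88.1 kb upstream of the start of LINC01929 and 216 kb downstream of that of CHD9NB. The other 6 of the 10 highest sites lay nearest to GRHL2 (Charlie8), SNORD3P3 (Charlie17), MAGI2-AS3 (Zaphod), AGTPBP1 (Charlie6), BTLA (MER97b) and CNTNAP2 (MER20B). GRHL2 is a transcription factor of epithelia, AGTPBP1 removes glutamate from tubulin, BTLA is an inhibitory receptor of lymphocytes and CNTNAP2 is an adhesion protein of neurons. These 10 sites were thus in 10 different subfamilies.

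hAT peaks differed from those in Tigger elements, another group of DNA transposons, in the second palindrome and in 3 strings of other factors. Against peaks outside repeats the core, the fitted motif, the second palindrome and the MYB string were compared, and none passed. A total of 16 such comparisons were made with two-sided Fisher's exact tests, and p-values were adjusted over them by the method of Benjamini and Hochberg. The core was held by 23.1% of hAT peaks and 29.9% of 374 Tigger peaks, a difference of -6.87 percentage points (95% interval -14.2 to 1.11; adjusted exact p = 0.283). The share was 22.2% in 4702 non-repeat peaks (difference 0.874 points, -4.78 to 7.61; adjusted exact p = 0.785) and 27.5% in 2410 peaks of other repeats (difference -4.39 points, -10.2 to 2.47; adjusted exact p = 0.401). For the fitted motif the shares were 25.8% in hAT peaks and 29.4% in Tigger peaks (difference -3.59 points, -11.1 to 4.52; adjusted exact p = 0.614), and, on chromosomes kept out of the fit, 26.0% of 96 hAT peaks and 28.3% of 2359 non-repeat peaks (difference -2.28 points, -10.2 to 7.47; adjusted exact p = 0.777).

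The second palindrome was less frequent in hAT peaks, with 27.5% against 40.1% in Tigger peaks, a difference of -12.6 points (-20.4 to -4.20; adjusted exact p = 0.0142). Against non-repeat peaks, at 23.8%, the difference was 3.67 points (-2.42 to 10.7; adjusted exact p = 0.401). The comparisons of the second palindrome and of the SOX, AP-1 and MYB strings below were added after values had been seen. All comparisons that passed were among these, and the adjustment does not cover that choice.

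The same flanks served for strings of 15 other factors, with p-values adjusted over the 15, and 2 of them passed. The MYB string AACNGTT, where N is any base, was held by 29 hAT peaks (15.9%, 11.3 to 21.9%) and 7 flanks (3.85%, 1.88 to 7.73%), with an adjusted p of 0.00293 in the two-sided exact McNemar test. It was held by 11.8% of all peaks. With flanks 1 kb away instead, 19 flanks held it and the adjusted p was 0.492, so the call rests on which flanks are taken. In the central 200 bp it was in 20 peaks and 4 flanks (adjusted exact p = 0.0128). MYB proteins are transcription factors of proliferating and germ cells. Of 32 MYB sites, 4 overlapped the core or the second palindrome.

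The AP-1 string, TGACTCA or TGAGTCA, was held by 27 hAT peaks (14.8%, 10.4 to 20.7%) and 10 flanks (5.49%, 3.01 to 9.82%), with an adjusted p of 0.0250 in the two-sided exact McNemar test. It was held by 13.4% of all peaks. With flanks 1 kb away the count was 6 flanks and the adjusted p 0.00486, but in the central 200 bp of peaks and flanks the string was in 16 peaks and 7 flanks and the call was lost (adjusted exact p = 0.191). AP-1 is the dimer of FOS and JUN proteins. None of its 30 sites overlapped the core or the second palindrome.

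The SOX string, CCATTGT or CCTTTGT, was held by 27 hAT peaks and 16 flanks (adjusted exact p = 0.355) and by 16.7% of all peaks. SOX17 was one of the transgenes. The FOX string, TATTTAC or TGTTTAC, was held by 36 hAT peaks and 25 flanks (adjusted exact p = 0.385) and by 17.0% of all peaks, and the homeobox string TAATTA by 15 hAT peaks and 30 flanks (adjusted exact p = 0.100) and by 11.6% of all peaks. In the central 200 bp the homeobox string was in 9 peaks and 24 flanks and passed as lower in peaks (adjusted exact p = 0.0444). The string of the glucocorticoid and progesterone receptors was held by 3 hAT peaks and 1 flank and by 0.824% of all peaks, and CCAAT, the NFY string, by 80 hAT peaks and 74 flanks and by 37.9% of all peaks.

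**Figure D2:**
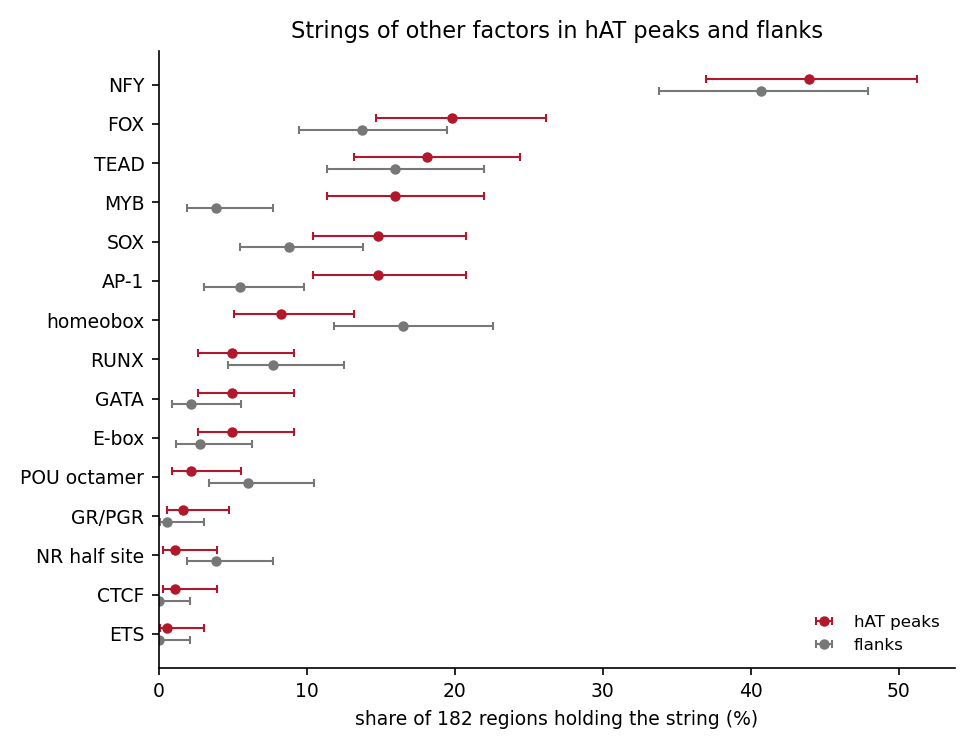
Share of the 182 hAT peaks and of their 182 flanks (%) holding the strings of 15 other factors, with Wilson 95% intervals as bars. The points stand furthest apart, in favour of hAT peaks, for MYB (15.9 against 3.85%) and AP-1 (14.8 against 5.49%).

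hAT peaks and Tigger peaks differed in these strings as well. SOX was held by 14.8% of hAT peaks and 35.3% of Tigger peaks, a difference of -20.5 points (-27.1 to -12.9; adjusted exact p = 4.43e-06), and AP-1 by 14.8% and 25.9% (-11.1 points, -17.5 to -3.88; adjusted exact p = 0.0142). MYB went the other way, with 15.9% of hAT peaks and 5.35% of Tigger peaks (10.6 points, 5.21 to 16.9; adjusted exact p = 0.000706). Its share in non-repeat peaks was 12.2% (3.73 points, -0.979 to 9.81; adjusted exact p = 0.296). The SOX and AP-1 strings were held by 14.1% and 13.6% of non-repeat peaks, near the hAT shares, and those differences were not tested. Words of this length recur at fixed places in the copies of a repeat, so peaks of 1 subfamily share them by descent and are not independent of each other.

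The hAT peaks were spread thinly over subfamilies. The family hAT-Charlie held 147 peaks, hAT-Tip100 20 and hAT-Blackjack 11, and 4 further family names held 1 peak each. The 10 subfamilies with 5 or more peaks held 89 peaks, 26 with 2 to 4 peaks held 69, and 24 were represented by 1 peak. At least 1 of the 3 sequences was held by 83 of the 147 hAT-Charlie peaks, 13 of the 20 hAT-Tip100 peaks and 2 of the 11 hAT-Blackjack peaks. Over all peaks that share was 55.6%. Differences between families were not tested, and those in hAT-Tip100 and hAT-Blackjack rest on few peaks.

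**Figure D3:**
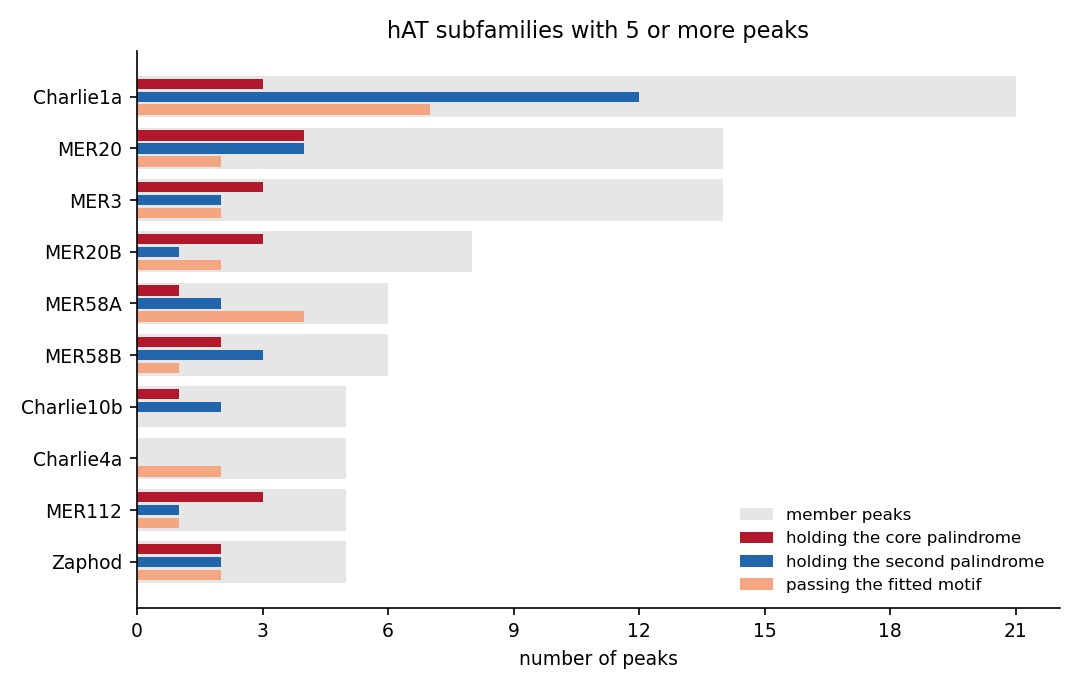
Number of peaks in the 10 hAT subfamilies with 5 or more peaks (grey), and of those the number holding the core palindrome, the second palindrome and the fitted motif. Charlie1a stands out with 12 of 21 peaks holding the second palindrome, and Charlie4a held neither palindrome.

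The counts by subfamily are small, and only Charlie1a was compared with other hAT peaks, for the second palindrome, as given below. Other differences between subfamilies were not tested. Over all peaks the core was held by 24.0%, the second palindrome by 25.0% and the fitted motif by 30.1%. At least 1 of the 3 was held by 55.6%. The 21 Charlie1a peaks held the second palindrome in 12, the fitted motif in 7 and the core in 3. The 14 MER20 peaks held the core in 4, the second palindrome in 4 and the fitted motif in 2, and the 14 MER3 peaks held them in 3, 2 and 2. All 6 MER58A peaks held at least 1 of the 3, mostly the fitted motif (4 peaks), and MER112 held the core in 3 of 5. By contrast none of the 3 was found in the 4 Charlie7 peaks, which fall outside the rule for named subfamilies and were picked after their values were seen.

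In the 3 subfamilies with 10 or more peaks, none of 6 tests of the core and the fitted motif against flanks passed after adjustment over the 6. The lowest was the fitted motif in Charlie1a, with 7 of 21 peaks and 0 of 21 flanks (two-sided exact McNemar test, p = 0.0156, adjusted p = 0.0938), and it was the only 1 of the 6 with an unadjusted p under 0.05. For the second palindrome, tested after its values were seen, Charlie1a passed with 12 of 21 peaks (57.1%, 36.5 to 75.5%) and 1 of 21 flanks (4.76%; adjusted p over 3 subfamilies = 0.0103, exact McNemar test). MER20 had 4 of 14 peaks and 0 flanks (adjusted exact p = 0.188), and MER3 had 2 peaks and 1 flank (adjusted exact p = 1.00). The Charlie1a share of 57.1% compared with 38 of the other 161 hAT peaks (23.6%, 17.7 to 30.7%), a difference of 33.5 points (11.7 to 52.8; two-sided Fisher's exact test, p = 0.00299), again a test made after the values were seen.

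Flanks need not lie in a transposon, so copies of the same subfamily without a peak are the nearer comparison. Profiles built from the member peaks of Charlie1a (463 bp), MER20 (190 bp) and MER3 (191 bp) were searched for in GRCh38, and copies that covered at least 50% of the profile were kept. This gave 16 Charlie1a copies with a peak centre in them and 1596 without, 14 and 14721 for MER20, and 12 and 8389 for MER3. A peak centre thus lay in 0.989% of Charlie1a copies, 0.0949% of MER20 copies and 0.143% of MER3 copies. A further 5 Charlie1a, 15 MER20 and 16 MER3 copies overlapped a peak without holding its centre. Those were left out of both kinds, copies with a peak and copies without one. In each subfamily, 1 of the copies with a peak carries a peak that the authors' annotation gives to a related element.

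Charlie1a copies with a peak held the second palindrome in 14 of 16 (87.5%, 64.0 to 96.5%), against 625 of 1596 copies without a peak (39.2%, 36.8 to 41.6%). Over both kinds of copy it was held by 39.6%. The difference of 48.3 points had an adjusted p of 0.000315 over the 3 subfamilies (two-sided Fisher's exact test, chosen after values were seen). In the copies nearest to CREM and FOXF2 the palindrome lay outside the peak. All 12 Charlie1a peaks that held it were in the copies kept, and every Charlie1a peak whose copy was not kept lacked it. The 87.5% of copies therefore cannot be read beside the 57.1% of the 21 Charlie1a peaks given above. For MER20 the shares were 3 of 14 (21.4%, 7.57 to 47.6%) and 4.92% (4.59 to 5.29%), with an adjusted p of 0.0436, and for MER3 they were 0 of 12 and 1.45% (adjusted exact p = 1.00). CCAAT, taken as a string with no known tie to DMRT1, was held by 81.2% of Charlie1a copies with a peak and 85.4% without (adjusted exact p = 0.781). At such a share it had little room to rise, so it cannot show whether copies with a peak hold more of any rarer word. In MER20 its shares were 28.6% and 26.1%, and in MER3 50.0% and 45.9% (each adjusted exact p = 0.781).

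Copies with a peak were also closer to the profile, which was built from them. The median profile score was 282 in Charlie1a copies with a peak and 200 in those without. Among copies at or above the median score of those with a peak, the second palindrome was held by 8 of 8 with a peak and 70 of 111 without (63.1%, 53.8 to 71.5%), a difference of 36.9 points with an adjusted p of 0.148 in the two-sided Fisher's exact test. The direction held among these few copies, and the call did not. In MER20 the median profile score was 138 in copies with a peak and 94.9 in those without. No comparison limited by score was made there, so the MER20 call has not been checked in that way.

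**Figure D4:**
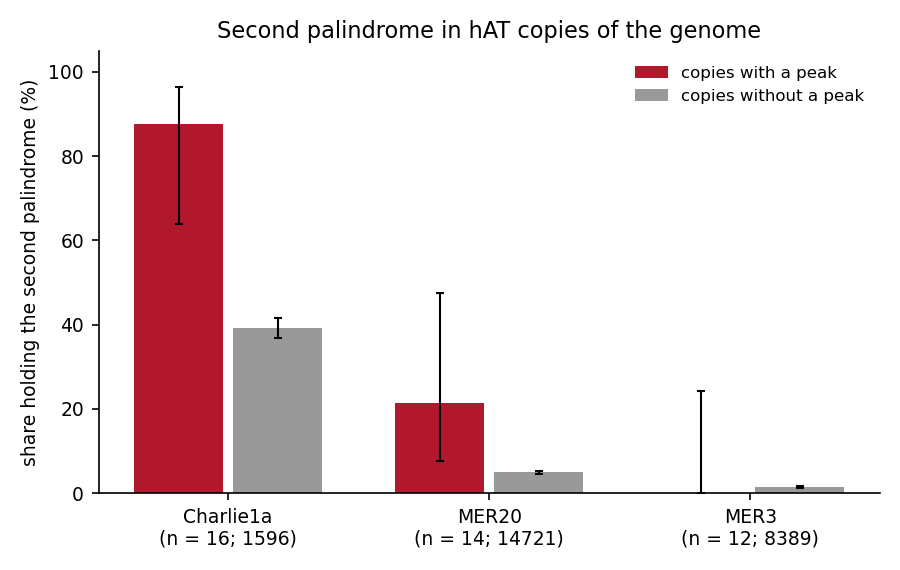
Share of genome copies (%) holding the second palindrome in Charlie1a, MER20 and MER3, for copies with a DMRT1 peak beside copies without one, with Wilson 95% intervals and the number of copies of each kind under each name. The pairs read 87.5 against 39.2% for Charlie1a, 21.4 against 4.92% for MER20 and 0 against 1.45% for MER3.

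The core and the fitted motif did not separate copies with a peak from those without, as none of 6 tests passed after adjustment over the 6. Of these, 2 had an unadjusted p under 0.05 in Fisher's exact test. In MER3 the core was held by 2 of 12 copies with a peak and 2.16% without (exact p = 0.0270), and in Charlie1a the fitted motif was held by 4 of 16 and 7.83% (p = 0.0334), each with an adjusted p of 0.100. In Charlie1a the core went the other way, with 1 of 16 (6.25%) and 11.8% (adjusted exact p = 1.00).

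The second palindromes of Charlie1a sat at fixed places. Of 20 sites in the copies with a peak, 17 were at positions 238 or 302 of the profile, 64 bases apart, and 16 of the 20 were inside the peak itself. The sites below are shown in the direction of the profile, with the palindrome in capitals, since they show the 2 places side by side. The first 4 are at position 238 and the last 4 at position 302.
DYSF, chr2:71477653-71477675: aatgcaacTGTTACAgaatcata
MON2, chr12:62520214-62520236: atacatgaTGTTACAaaatcatg
SEM1, chr7:96534440-96534462: atgcatgaTGTTACAaaatcaga
RPTOR, chr17:80593399-80593421: gtgcgtgcTGTTACAacaccatg
KPNA4, chr3:160559554-160559576: gattttaaTGTAACAgtgtaaga
PSEN2, chr1:226860760-226860782: ggtattaaTGTAACAgatatgaa
LINC01929, chr18:55212432-55212454: gatttaaaTGTAACAgagtataa
RPTOR, chr17:80593462-80593484: ggtctcaaTGTAACAgagtatga

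Position 238 held the palindrome in 8 of 16 copies with a peak (50.0%) and 336 of 1596 without (21.1%), with an adjusted p of 0.0101 in the two-sided Fisher's exact test. Position 302 held it in 9 of 16 (56.2%) and 290 of 1596 (18.2%; adjusted exact p = 0.00156). Both places were filled in 4 copies with a peak (25.0%), nearest to LINC03007, MON2, PSEN2 and RPTOR, and in 69 copies without one (4.32%; adjusted exact p = 0.00621). At least 1 place was filled in 13 of 16 (81.2%) and 557 of 1596 (34.9%; adjusted exact p = 0.000859). These 4 tests were added after the values were seen and were adjusted over the 4. They overlap with each other and with the test over whole copies. All copies kept were used, so a copy that did not reach a place counted as lacking the palindrome there. Of the 1596 copies without a peak, 1303 were complete at position 238 and 1209 at position 302. Copies were not matched by profile score in these tests.

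In copies without a peak that were complete at these places, the palindrome was itself the most frequent word. TGTTACA stood at position 238 in 335 of 1303 such copies (25.7%), followed by TGTTATA in 114 (8.75%). TGTAACA stood at position 302 in 289 of 1209 (23.9%), followed by TATAACA in 66 (5.46%). The runners-up each differ from the palindrome by 1 letter.

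**Figure D5:**
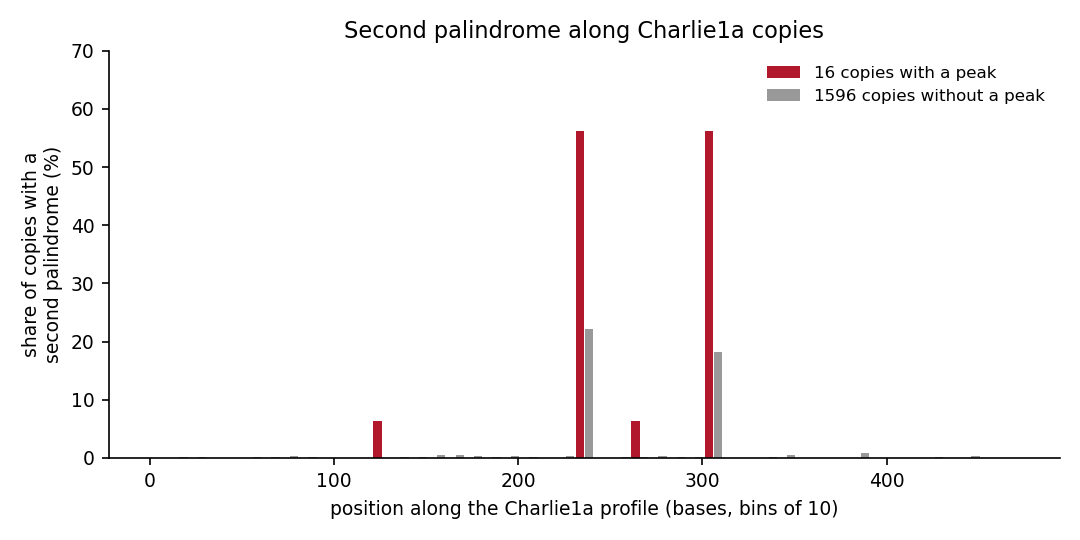
Share of Charlie1a copies (%) with a second palindrome starting in each bin of 10 bases along the 463-base profile, for the 16 copies with a peak beside the 1596 without. The bins that hold positions 238 and 302 stand above all others in both kinds of copy, each at 56.2% of copies with a peak.

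RPTOR is a subunit of the growth-controlling kinase complex mTORC1, DYSF repairs the membrane of muscle cells, PSEN2 is the catalytic part of a gamma-secretase, KPNA4 is an importin that carries proteins into the nucleus, MON2 acts in traffic from the Golgi, and SEM1 is a small subunit of the proteasome. The DYSF peak, in an intron 11 kb from the start of the gene, is 180 bp long and lies inside a Charlie1a copy. It is given whole, on the forward strand, because its second palindrome lies close to its centre.
DYSF, Charlie1a, chr2:71477580-71477759: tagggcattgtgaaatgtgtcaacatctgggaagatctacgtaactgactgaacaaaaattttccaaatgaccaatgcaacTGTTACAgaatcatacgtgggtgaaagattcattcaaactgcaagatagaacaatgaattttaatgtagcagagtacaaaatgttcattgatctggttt

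In MER20 the 4 second palindromes of copies with a peak stood at 2 places. Position 63 of the profile held it in 3 of 14 copies with a peak and in 24 of 14721 without (0.163%). Position 115 held it in 1 copy with a peak, nearest to BMPR2, and in 551 without (3.74%), where it was the commonest place. The usual word at position 63 in copies without a peak was TTTAGCA, in 3456 of 12673 copies complete at that place (27.3%). That place was singled out after its values were seen, so no test is given. Of the 3 copies with the palindrome at position 63, 2 are shown in the direction of the profile.
BMPR2, chr2:202432485-202432507: gtaagacgTGTTACAgcatccct
ZFR, chr5:32420740-32420762: gtaggattTGTAACAgcatccct

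BMPR2 is a type II receptor for bone morphogenetic proteins, and ZFR is a zinc finger protein that binds RNA. The BMPR2 peak, 162 bp wide and in intron 1 of 12, held the palindrome at both places.

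2 pairs of hAT peaks were near-identical copies of each other and are not independent. The Charlie10b peaks nearest to NBPF12 and VAC14 shared 81.9% of the 31-base words of the smaller peak, and the MER58B peaks nearest to LOC107984035 and LOC642929, both on chromosome 9, shared 48.9%. Reads from such copies can be placed on either, and their part in these 4 peaks was not tested. With 1 peak of each pair left out, the differences between peaks and flanks were 19.4 points for the core, 20.6 for the second palindrome and 23.3 for the fitted motif.

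hAT peaks were mostly distal, as were other peaks. Their median width was 283.5 bp (interquartile range 205 to 389, full range 138 to 959), and 47.8% were at least as wide as the median of all other peaks, 289 bp, against 50.3% of those (adjusted exact p = 0.731, Fisher's exact test). The nearest transcription start site (TSS) was at a median distance of 40.7 kb (17.5 to 104 kb). Within 10 kb of a TSS lay 28 (15.4%), against 16.7% of all other peaks (adjusted exact p = 0.777), and beyond 100 kb lay 26.9%, against 32.1% (adjusted exact p = 0.296).

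In the authors' annotation 108 hAT peaks were intronic, 30 of them in a first intron, and 74 were intergenic. The intronic share of 59.3% (52.1 to 66.2%) compared with 51.3% of all other peaks (two-sided Fisher's exact test, p = 0.0355, adjusted exact p = 0.114) and with 57.5% of Tigger peaks (adjusted exact p = 0.777). With GENCODE gene bodies in place of that annotation the difference from all other peaks turned to -0.74 points (p = 0.872, Fisher's exact test). Every hAT, Tigger and other repeat peak was intronic or intergenic in the authors' annotation. Of 4702 non-repeat peaks, 2474 were intronic and 1777 intergenic, and the rest lay in other features. The comparison of intronic shares with all other peaks is thus partly set by how members were chosen. No difference in width or location passed after adjustment.

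No gene was nearest to 2 hAT peaks, as the peaks had 181 distinct nearest genes, 132 of them protein-coding. Another DMRT1 peak of any kind lay within 10 kb of 15 hAT peaks (8.24%), against 11.5% of other peaks, and in no case was it another hAT peak. Of the 182 peaks, 2 were on chromosome X. The median GC content was 37.4% in hAT peaks and 38.5% in their flanks.

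Within 2 kb of a TSS lay 5 hAT peaks, all in introns, a place partly set by how members were chosen, as described above. They were nearest to LINC01672 (MER20, 0.149 kb from the start), LINC01727 (MER20B, 1.37 kb), LINC00517 (Charlie10, 1.55 kb), BORA (MER58B, 1.68 kb) and ANKRD28 (MER3, 1.70 kb). BORA activates Aurora A kinase in mitosis, and ANKRD28 is a regulatory subunit of protein phosphatase 6. LINC00517 had the second palindrome, BORA the fitted motif, and the other 3 peaks none of the 3 sequences. The site of LINC00517 lay 114 bp from the peak centre, with the palindrome in capitals.
LINC00517, Charlie10, chr14:37900681-37900703: agttccttTGTAACAttagaaac

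Among 151 genes of 8 lists fitting germ cells and their signals, 60 were nearest to a DMRT1 peak of any kind and 2 to a hAT peak. Both were in the list of 41 Activin, BMP and retinoic acid genes, of which 16 were nearest to any peak. BMPR2 is described above. SMAD2, a mediator of Activin signals in the nucleus, had a Charlie29a peak in intron 1 of 10, 17.3 kb from its start, with none of the 3 sequences. No hAT peak was nearest to any of 32 germ cell and piRNA genes, 18 genes of germ cell specification and pluripotency, 14 DNA methylation genes, 14 histone demethylases, 13 cell cycle inhibitors, 7 genes of the DMRT family or 12 genes derived from hAT transposases. Of these, 12, 6, 6, 7, 5, 5 and 3 were nearest to some other DMRT1 peak. As hAT peaks were 182 of the 7764 peaks, few listed genes would be nearest to one by that share alone. The lists without a hAT peak therefore do not show an absence at such genes. The hAT peaks had 181 nearest genes in all, and the counts in lists were not tested.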

How the data were processed

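CUT&RUN reads of 2 DMRT1 libraries and 1 IgG library were processed by the authors, who used leeHom for trimming, Bowtie2 for alignment to GRCh38 (version 2.2.5 in the submitters' processing notes) and MACS2 for peak calling against IgG with duplicates kept. They retained peaks with a −log10 q value above 8 common to both DMRT1 libraries, annotated with HOMER. The sources used here do not say what overlap made a peak common. Columns deposited hold other measures than a signal, namely the start, end and distance to the nearest TSS of each peak in base pairs. Keeping duplicates and the threshold act on which repeat copies pass, and mappability was not modelled.

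Of 7818 deposited peaks, 7764 on chromosomes 1 to 22, X and Y were used, with coordinates 1-based and both ends included. The authors' distance was recovered within 1 bp from GENCODE release 44 for 130 of 172 hAT peaks (75.6%). Symbols came from RefSeq through Entrez identifiers, which changed 6.

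Sequences were read from hg38 with pysam 0.24.0 (Python 3.11.15). Peaks were compared with 1 flank of equal width, centred 5 kb to a side drawn with a fixed seed, by two-sided exact McNemar tests, and with other peaks by two-sided Fisher's exact tests (scipy 1.17.1). Intervals of differences were built from the Wilson intervals. The 15-base motif was fitted by expectation maximisation from the core, with the share of peaks holding a site set to 0.3, after other settings had been tried on non-repeat peaks. Profiles were built with HMMER 3.4 from member peaks with 150 bp on either side in 4 rounds and searched for at an E value of 0.001. Where hits overlapped, the best was kept. Profiles recovered 19 of 21 Charlie1a, 14 of 14 MER20 and 14 of 14 MER3 peaks. Scripts were tested on simulated data.

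The members, strings, gene lists and tests were chosen with earlier results of these data known. Subfamilies were named from 5 peaks on. Genes were named where they belong to a list, were nearest to 2 or more hAT peaks, had a peak within 2 kb of the TSS, were nearest to 1 of the 10 best fitted sites or to a printed sequence, with exceptions stated in the text. Alternatives varied the flank, the window, the members, the motif threshold, the copies kept and the annotation. Sequences of 1 chromosome and 1 site at a further gene are not reported here.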

Additional observations from a re-analysis of the deposited data

How the results depend on the processing

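Of 48 alternatives, 45 kept the direction and the side of the threshold or the count. In these, the difference between hAT peaks and flanks stayed positive with p under 0.05 for the core, the second palindrome and the fitted motif with flanks 1 or 20 kb away or on the other side, in the central 200 bp, without Charlie1a, in the wider peaks and without 1 peak of each near-identical pair. With flanks 1 kb away, the number of other factors' strings that passed was 1 instead of 2, because MYB did not. In the central 200 bp the number stayed at 2 but the strings did not, as MYB passed, AP-1 did not (adjusted exact p = 0.191) and homeobox passed as lower in peaks (0.0444). With GENCODE gene bodies, the difference in intronic share was -0.74 points. Among Charlie1a copies at or above the median score of copies with a peak, the difference in the second palindrome was 36.9 points with an adjusted p of 0.148. The last of these, like the other settings on Charlie1a copies for that palindrome and the pairs left out, was chosen after the data were seen. The cause was not tested.

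No paired analysis was possible because the result is 1 list common to both DMRT1 libraries, with no value per library, and the single IgG library has no partner. For the same reason no replicate was left out. Depth is unknown from the list.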
